A study of Arabidopsis thaliana with 15 samples.

Results

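The cysteine-rich receptor-like kinases (CRKs) of Arabidopsis thaliana were examined in leaf RNA-seq of 2 genotypes. CRKs are plasma-membrane proteins with a secreted, cysteine-rich DUF26 ectodomain, a membrane-spanning helix and an intracellular serine/threonine kinase. Many are induced in leaves by salicylic acid, pathogens and reactive oxygen, and several have been placed beside pattern-recognition receptors and the NADPH oxidase of the oxidative burst. The family has expanded by local duplication, so that many members lie side by side on chromosome 4. The set held 41 of the 73194 features of the table: CRK1 to CRK8, CRK10 to CRK34, CRK36 to CRK42, and AT4G23170, which lies among them and which the RefSeq table of assembly TAIR10.1 calls EP1, with CRK9 as a synonym. Members were taken by locus, and all 40 numbered names stand in that table as the symbol or a synonym of the locus. The family was selected on the prp4k3 against Col-0 fold changes of these same libraries, so those fold changes describe the family and carry no test of it.

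The study is about the kinase PRP4KA and its action on SERRATE, an RNA-processing protein. Leaves of untreated 3-week-old plants were compared between prp4k3, given in the design text as prp4k3(amiR-PRP4K3), and Col-0, the wild-type accession, with 3 RNA-seq libraries each. The promoter of the artificial microRNA, the number of lines and the plants pooled per library are not stated in the labels. Nothing ties the libraries to different plants, and the spread that p-values rest on may therefore be technical. A further 3 libraries of se-2 are labelled but not analysed here.

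Library totals were 16041754 to 16955629 counts in prp4k3 and 18305640 to 19344157 counts in Col-0. Organelle genes held 39.2% ± 0.854 of counts in prp4k3 and 49.4% ± 1.56 in Col-0 (SD, n = 3 each). All levels below are CPM (counts scaled to a common library size, with TMM factors), which set the bulk of genes level between libraries. Over all tested features the median log2 fold change was 0.02 on this scale and 0.86 when libraries were scaled by total counts, so each fold change below is relative to the TMM scale. The reference table gives no symbols for the 3 loci taken as PRP4K genes. Of these, AT3G25840 (PRP4KA) was at 6.26 ± 0.231 CPM in prp4k3 and 10.03 ± 0.914 CPM in Col-0, AT1G13350 (PRP4KB) at 4.39 ± 0.822 CPM in prp4k3 and 5.83 ± 0.529 CPM in Col-0, and AT3G53640 (PRP4KC) had 0 counts. PRP4KA was lower on the TMM scale (log2 fold change -0.68 ± 0.13 SE, edgeR's quasi-likelihood test, adjusted p = 0.00116) but lay at 0.16 under total-count scaling. All 8 leaf markers were detected and called lower in prp4k3, as were 31.9% of all tested features. Under total-count scaling 6 of them were called lower, where 9.81% of all features were. Their summed levels were 17782 to 18804 CPM in prp4k3 and 53089 to 58405 CPM in Col-0. The root markers PLT1, RHD6 and EXPA7 had 0 counts, and the 7 root markers summed to 18.9 to 28.0 CPM in prp4k3 and 29.0 to 44.1 CPM in Col-0. The 9 shoot apex and flower markers summed to 4.51 to 13.7 CPM in prp4k3 and 5.83 to 7.13 CPM in Col-0, and 6 guard cell markers to 25.9 to 30.6 CPM in prp4k3 and 29.3 to 32.8 CPM in Col-0. The calls were 0 higher and 1 lower among 2 tested root markers, 1 and 1 among 2 tested shoot apex and flower markers, and 1 and 1 among 6 guard cell markers. Of all tested features 33.9% were called higher and 31.9% lower. STM, a shoot meristem gene, made up most of the shoot apex and flower sum in Col-0, with 2.99 CPM in prp4k3 and 5.83 CPM in Col-0. The flower genes AP1, AP3, PI and SEP3 were low but higher in every prp4k3 library than in any Col-0 library. The flower genes AG and LFY, also low, overlapped between genotypes. Of these flower genes only AP1 passed the filter, and it was called higher. AP1 had 42, 11 and 25 counts in prp4k3, against 0, 2 and 1 in Col-0, and AP3 had 32, 5 and 13 counts in prp4k3, against 0, 1 and 0 in Col-0. PI had 66, 9 and 20 counts in prp4k3, against 2, 2 and 0 in Col-0, and SEP3 had 37, 8 and 19 counts in prp4k3, against 0 in all Col-0 libraries. These 4 genes were highest in prp4k3 replicate 1, and the other prp4k3 libraries also held more of them than Col-0. Without prp4k3 replicate 1, 29 CRK members were called higher, where 5768 of all 18857 tested features were. The median log2 fold change in the chromosome 4 clusters described below was then 2.95. That fit keeps prp4k3 libraries that also hold these flower genes, so it cannot set them apart from the CRK values. The part of these markers in the CRK values was not tested.

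Most CRK genes were higher in prp4k3 leaves, and few were lower. Of the 41 members, 39 had a count in some library and 35 passed the filter on low counts. A call here means an adjusted p (Benjamini-Hochberg, edgeR's quasi-likelihood test) under 0.05 over all 18609 tested features, and 65.8% of them were called in one direction or the other. By that call 29 members were higher in prp4k3, where 33.9% of all tested features were, and 3 were lower, where 31.9% of all features were. CRK10, CRK29 and CRK41 were not called. The 29 higher members had all 3 prp4k3 libraries above all 3 Col-0 libraries, an arrangement found in 36.5% of tested features. The 3 lower members, CRK21, CRK22 and CRK42, had all prp4k3 libraries below all Col-0 libraries, as did 34.0% of tested features. Under total-count scaling 33 members were called higher, where 67.1% of all features were, and 2 lower, where 9.81% were. These counts follow from how the family was taken up and are read no further.

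The filter itself favoured differing genes. It asked for about 0.567 CPM, without TMM factors, in 3 libraries. In 15 of the 35 members that level was reached in all 3 prp4k3 libraries but not in all 3 Col-0 libraries. Of these, CRK7, CRK13, CRK15 and CRK34 also reached it in 2 Col-0 libraries, CRK28 in 1 and the others in 0. None of these 15 could have entered the test on its Col-0 libraries alone, and all 15 were called higher. The 20 members that reached it in both genotypes comprised 14 called higher, 3 called lower and the 3 not called. The median log2 fold change was 2.58 over the 35 members and 0.02 over all tested features. In bulk leaf RNA, more cells of a type and more RNA per cell cannot be told apart, which holds for each value below.

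**Figure D1:**
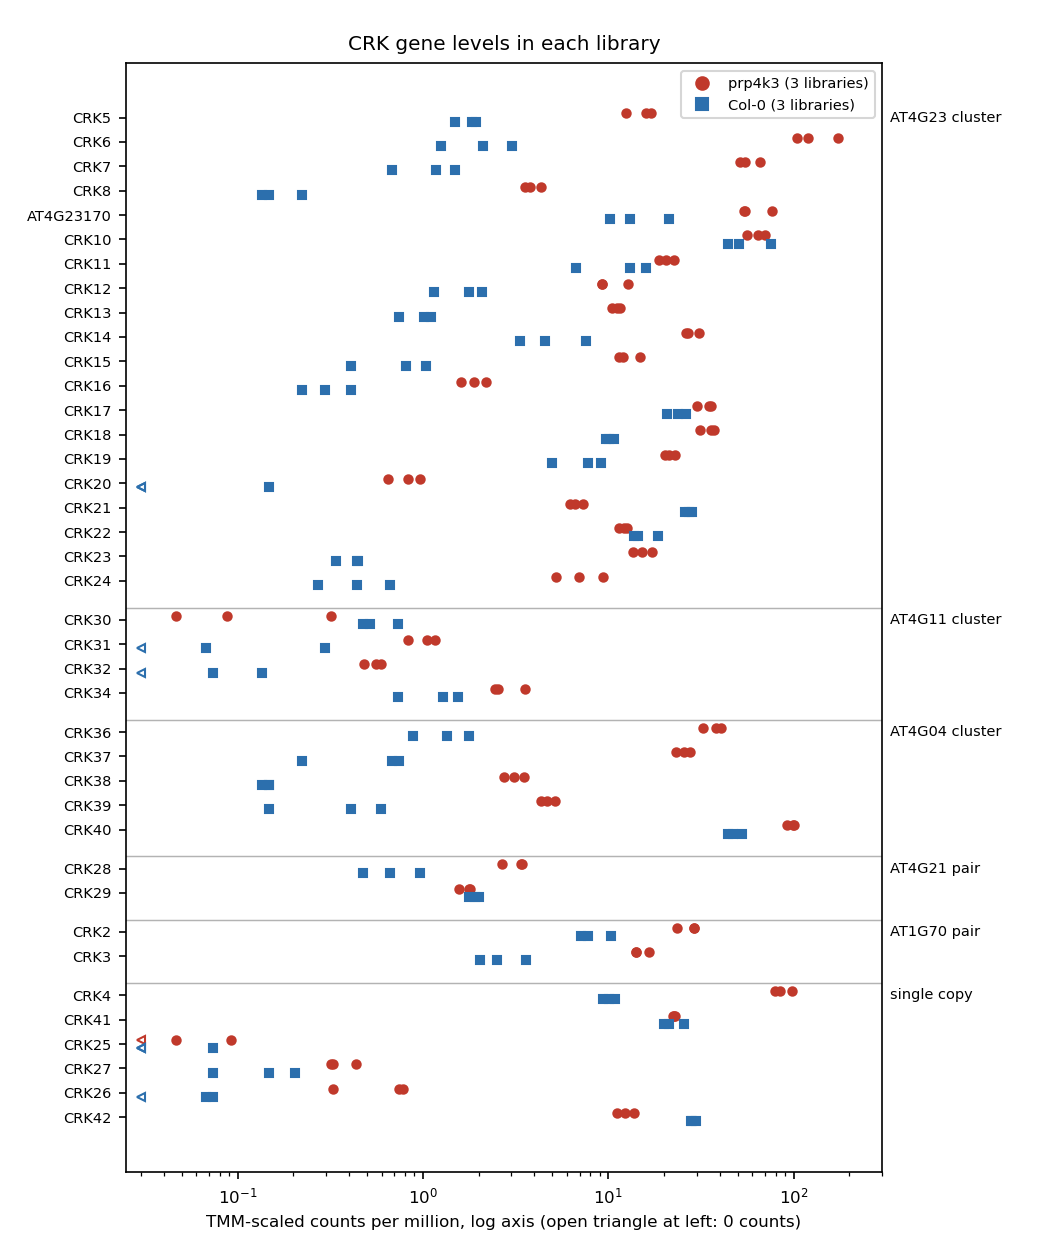
Levels of the 39 CRK genes with a count, as TMM-scaled CPM on a log axis, with 1 point per library (red circles prp4k3, blue squares Col-0, open triangles 0 counts) and genes ordered by their layout in the genome. The red points lie right of the blue ones for most genes; for CRK21, CRK22, CRK30 and CRK42 they lie left, and for CRK10, CRK25, CRK29 and CRK41 the genotypes overlap.

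By position the members fell into 3 tandem clusters of chromosome 4, named here by their shared locus numbers, 2 neighbouring pairs and 7 single copies. The AT4G23 cluster held 20 members (CRK5 to CRK8, AT4G23170 and CRK10 to CRK24), the AT4G11 cluster 5 (CRK30 to CRK34) and the AT4G04 cluster 5 (CRK36 to CRK40). CRK28 with CRK29, and CRK2 with CRK3 on chromosome 1, formed the pairs. CRK1, CRK4, CRK25, CRK26, CRK27, CRK41 and CRK42 had no other member within 40 in locus number.

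The AT4G23 cluster held the largest CRK differences of both signs. All of its 20 members were tested, with 17 higher, 2 lower and 1 not called in prp4k3. Of all tested features 33.9% were called higher and 31.9% lower. Log2 fold changes of the cluster ran from -2.01 to 5.96 around a median of 2.61. CRK6 (AT4G23140), whose overexpression has been linked to stronger pattern-triggered immunity, had 173, 104 and 120.3 CPM in prp4k3 replicates 1, 2 and 3, against 1.25, 2.104 and 3.04 CPM in Col-0. Replicate 1 was the highest of the prp4k3 libraries and replicate 3 the highest of the Col-0 libraries, and the genotypes were far apart. The log2 fold change of CRK6 was 5.96 ± 0.30, the largest of the family. CRK7 (AT4G23150), next to CRK6 and linked like it to responses to reactive oxygen, had 65.7, 51.3 and 54.9 CPM in prp4k3, against 1.18, 0.679 and 1.48 CPM in Col-0, with no overlap and a log2 fold change of 5.69 ± 0.22.

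Neighbouring genes of this cluster often differed in size or sign of change. CRK5, whose overexpression has been reported to raise resistance to Pseudomonas, and CRK8 rose by 3.11 ± 0.19 and 4.48 ± 0.29 on the log2 scale on either side of CRK6 and CRK7. AT4G23170, the next locus, had 76.9, 54.1 and 54.4 CPM in prp4k3, against 10.2, 13.2 and 21.3 CPM in Col-0. Its libraries did not overlap by genotype, but both genotypes spread widely, and the log2 fold change was 2.06 ± 0.25.

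The next 2 loci differed far less. CRK10 had 69.8, 56.0 and 64.2 CPM in prp4k3, against 50.7, 44.5 and 75.7 CPM in Col-0. Its Col-0 replicate 3 lay above every prp4k3 library, the genotypes overlapped, and the log2 fold change of 0.15 ± 0.19 was not called. CRK10 was called higher without Col-0 replicate 3 (0.40) and under total-count scaling (0.9996), and lay at -0.0053 without Col-0 replicate 2. CRK11 rose by only 0.79 ± 0.25.

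The loci from CRK12 to CRK19 were all called higher, by unequal amounts. CRK12, CRK13, CRK14, CRK15 and CRK16 rose by 2.65 ± 0.23, 3.52 ± 0.18, 2.44 ± 0.24, 4.10 ± 0.25 and 2.58 ± 0.32 on the log2 scale. Of these, CRK13 is known from overexpressing plants with rapid cell death and salicylic acid-dependent resistance, and its level was 11.1 ± 0.539 CPM in prp4k3 and 0.955 ± 0.191 CPM in Col-0 (SD, n = 3 each). CRK17, also named EMB1290 after an embryo-defective mutant, rose by 0.51 ± 0.13, the smallest of the called rises in the family. CRK18 and CRK19 rose by 1.76 ± 0.12 and 1.55 ± 0.19.

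The high-numbered end of the cluster held opposite signs side by side. CRK20 had 54 counts in prp4k3 and 2 in Col-0, a ratio of 17.0 with an exact 95% counting interval of 4.49 to 144. Both Col-0 counts lay in replicate 1, so without that library Col-0 had 0 counts. CRK21 (AT4G23290) had 6.63, 7.30 and 6.23 CPM in prp4k3, against 27.2, 28.4 and 25.9 CPM in Col-0. The highest prp4k3 library lay far below the lowest Col-0 library, and CRK21 fell by 2.01 ± 0.11 on the log2 scale. It remained lower under total-count scaling (-1.17).

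CRK22, between CRK21 and CRK23, differed little. It had 11.5, 12.6 and 12.2 CPM in prp4k3, against 18.4, 14.5 and 13.8 CPM in Col-0, with Col-0 replicate 1 standing above the others. Its log2 fold change of -0.36 ± 0.14 was called lower, but it turned to 0.48 and was called higher under total-count scaling. The call was also lost without Col-0 replicate 1 (-0.24, edgeR adjusted p = 0.136), prp4k3 replicate 1 (adjusted p = 0.121) or prp4k3 replicate 3 (adjusted p = 0.083). CRK23 and CRK24, the last loci, rose by 5.22 ± 0.21 and 3.96 ± 0.34.

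Ratios of 2 genes within a library do not depend on how libraries are scaled. Per library, CRK21 had 0.578, 0.577 and 0.511 times the counts of CRK22 in prp4k3, against 1.47, 1.95 and 1.88 times in Col-0. The CRK23 to CRK22 ratio was 1.51, 1.21 and 1.12 in prp4k3, against 0.024, 0.0234 and 0.0323 in Col-0. The 2 neighbours of CRK22 thus moved in opposite directions relative to it, with no overlap between genotypes in either ratio. The CRK6 to CRK10 ratio was 2.48, 1.87 and 1.87 in prp4k3, against 0.0247, 0.0473 and 0.0401 in Col-0.

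**Figure D2:**
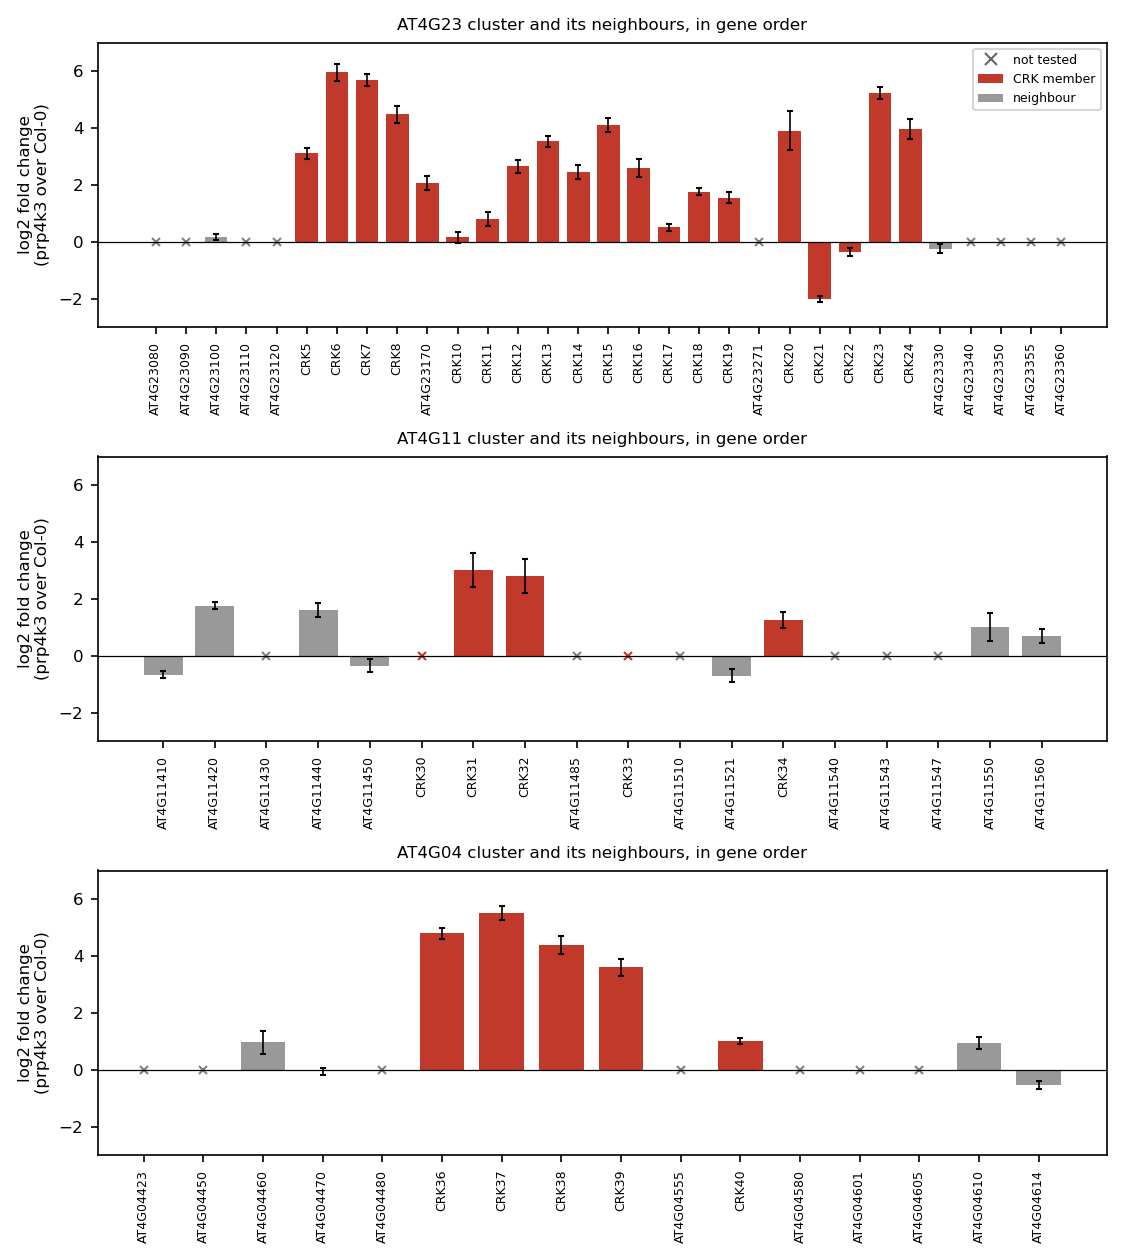
Log2 fold change, prp4k3 over Col-0, of each gene of the 3 chromosome 4 clusters in gene order with the 5 nearest protein-coding genes on either side; red bars are CRK members, grey bars neighbours, error bars standard errors and crosses genes that were not tested. In the AT4G23 cluster high bars stand on both sides of CRK10 and CRK11 and of CRK21 and CRK22. Over the 3 clusters grey bars stay between -0.69 and 1.76.

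In the AT4G04 cluster all 5 members rose in prp4k3, where 33.9% of all features were called higher, with a median log2 fold change of 4.38. CRK37 (AT4G04500) had 27.5, 25.5 and 23.3 CPM in prp4k3, against 0.221, 0.679 and 0.741 CPM in Col-0, and rose by 5.51 ± 0.24. CRK36, which has been tied to the immune kinase BIK1, had 32.5, 40.8 and 38.4 CPM in prp4k3, against 0.885, 1.36 and 1.78 CPM in Col-0, and rose by 4.79 ± 0.20. In these 2 genes the lowest prp4k3 library stood well above the highest Col-0 library. CRK38 rose by 4.38 ± 0.31, with 207 counts in prp4k3 and 6 in Col-0. CRK39 had 4.67, 4.32 and 5.13 CPM in prp4k3, against 0.148, 0.407 and 0.592 CPM in Col-0, and rose by 3.60 ± 0.31, with no overlap.

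CRK40, at the end of that cluster, differed least within it. It had 99.3, 92.5 and 101 CPM in prp4k3, against 47.0, 44.5 and 52.5 CPM in Col-0, and rose by 1.02 ± 0.11. The genotypes did not overlap and the spread within each was small. Relative to CRK40 in the same library, CRK37 had a count ratio of 0.261 ± 0.0266 in prp4k3 and 0.0114 ± 0.00579 in Col-0 (SD, n = 3 each), and CRK36 one of 0.383 ± 0.0568 in prp4k3 and 0.0277 ± 0.00789 in Col-0.

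Most of the AT4G11 cluster had few counts, CRK34 having the most. CRK33 had 0 counts in all 6 libraries, where 3 counts would correspond to 0.131 to 0.139 CPM in prp4k3 and 0.204 to 0.222 CPM in Col-0. CRK30 had 2, 1 and 7 counts in prp4k3 and 10, 7 and 7 counts in Col-0, and was not tested. CRK31 had 19, 25 and 23 counts in prp4k3, against 4, 1 and 0 in Col-0, and rose by 3.01 ± 0.59. That estimate was 4.59 without Col-0 replicate 1, which held 4 of the 5 Col-0 counts.

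CRK32 had 11, 12 and 13 counts in prp4k3, against 0, 2 and 1 in Col-0, a ratio of 7.57 with an exact 95% counting interval of 2.39 to 38.4. Col-0 replicate 2 held 2 of these 3 counts, and without it the log2 fold change of CRK32 was 3.65 against 2.81 with all libraries. CRK34 had 2.44, 2.56 and 3.57 CPM in prp4k3, against 0.738, 1.29 and 1.56 CPM in Col-0, and rose by 1.25 ± 0.28. Its genotypes did not overlap.

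The neighbouring pairs were higher in 3 of their 4 members, where 33.9% of all features were called higher. CRK2, which phosphorylates the oxidase RBOHD, had 29.0, 23.5 and 28.9 CPM in prp4k3, against 10.3, 7.80 and 7.11 CPM in Col-0, and rose by 1.69 ± 0.16. Its neighbour CRK3 had 14.1, 14.0 and 16.6 CPM in prp4k3, against 3.62, 2.04 and 2.52 CPM in Col-0, and rose by 2.46 ± 0.20. Neither gene overlapped between genotypes, and the CRK3 to CRK2 count ratio was 0.552 ± 0.0576 in prp4k3 and 0.322 ± 0.0527 in Col-0 (SD, n = 3 each).

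The other pair split. CRK28, a kinase that has been found with the co-receptor BAK1 and linked to cell death, had 2.66, 3.39 and 3.43 CPM in prp4k3, against 0.664, 0.475 and 0.963 CPM in Col-0, and rose by 2.17 ± 0.27. CRK29, beside it, had 1.79, 1.77 and 1.56 CPM in prp4k3, against 1.77, 1.90 and 1.9997 CPM in Col-0. The CRK29 libraries overlapped, and its log2 fold change of -0.15 ± 0.20 was not called, though it turned to 0.69 and was called under total-count scaling. The CRK28 to CRK29 count ratio was 1.49, 1.92 and 2.21 in prp4k3, against 0.375, 0.25 and 0.481 in Col-0, with no overlap.

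Among the 7 single copies, 3 were tested, and they went 3 ways. CRK4 (AT3G45860), on chromosome 3, is another member whose overexpression has been linked to stronger pattern-triggered immunity. It had 98.3, 84.7 and 78.9 CPM in prp4k3, against 9.37, 10.04 and 10.9 CPM in Col-0, and rose by 3.11 ± 0.13 with no overlap. CRK41 had 22.3, 23.0 and 22.8 CPM in prp4k3, against 20.1, 21.2 and 25.8 CPM in Col-0, and its overlapping libraries gave a log2 fold change of 0.02 ± 0.12, not called. It lay at -0.060 without Col-0 replicate 1 and -0.02 without Col-0 replicate 2, and was called higher under total-count scaling (0.86). CRK42 (AT5G40380), on chromosome 5, had 12.3, 13.8 and 11.1 CPM in prp4k3, against 28.3, 29.6 and 28.1 CPM in Col-0. It was lower in all prp4k3 libraries, fell by 1.21 ± 0.12, and remained lower under total-count scaling (-0.37).

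The 4 untested single copies had few reads. CRK1 had 0 counts in every library. CRK25 had 3 counts in prp4k3 and 1 in Col-0, CRK26 41 in prp4k3 and 2 in Col-0, and CRK27 24 in prp4k3 and 6 in Col-0. The ratio was 1.89 for CRK25, with an exact 95% counting interval of 0.152 to 99.3, and 12.9 for CRK26, with an interval of 3.36 to 110.3. The interval of CRK25 includes equal levels and that of CRK26 does not, and both cover counting error only.

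Set beside the single copies, the tandem clusters had the higher median, but from very unequal numbers. Over the 28 tested members of the 3 chromosome 4 clusters the median log2 fold change was 2.91, with 25 higher and 2 lower, and over the 3 tested single copies it was 0.02, with 1 higher and 1 lower. All tested features had a median of 0.02, with 33.9% higher and 31.9% lower. Of the 28 cluster members 14 had reached the filter level in all 3 prp4k3 libraries but not in all 3 Col-0 libraries. Of the 3 single copies 0 had. Those 14 needed their prp4k3 libraries, where they were high, to pass, so the medians compare sets that were filtered unequally. The 4 members of the pairs had a median of 1.93. The difference was not tested, since genes of the family are not replicates and the contrast was known when it was chosen. The single-copy median was 1.05 when no filter was applied and 6 single copies entered, and it lay between 1.47 and 1.64 when 1 of the Col-0 libraries or prp4k3 replicate 2 was left out and CRK26 also passed the filter. Members with a called rise of at least 3 on the log2 scale numbered 14 in the clusters, 0 in the pairs and 1, CRK4, among the single copies, while 3.43% of all tested features had such a rise. Ranked among all 18609 features, 17 cluster members, 1 pair member and 1 single copy were above the 95th percentile of the log2 fold change, and CRK6, CRK7, CRK23 and CRK37 were above the 99th.

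**Figure D3:**
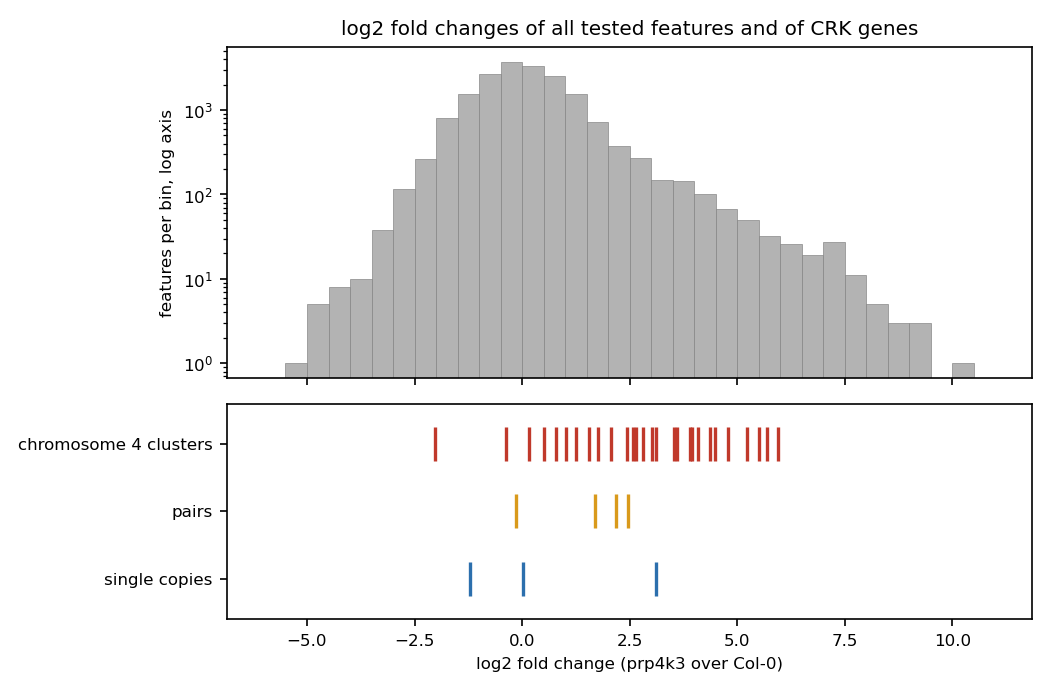
Log2 fold changes, prp4k3 over Col-0, of all 18609 tested features (grey, number per bin of 0.5, log axis) above those of the 35 tested CRK genes, with 1 tick per gene in rows for the chromosome 4 clusters, the pairs and the single copies. The cluster row spans -2.01 to 5.96 and reaches further to the right than the single-copy row, which has 3 ticks from -1.21 to 3.11.

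The tested genes next to the clusters spanned a narrower range than the members, which were more numerous and had been selected on these same fold changes. The 3 clusters enclose or adjoin 35 protein-coding genes that are no members (the 5 nearest on either side and those between members, in the RefSeq order), 30 of which are in the count table and 13 of which were tested. In prp4k3 4 of these were called higher and 3 lower, shares close to the 33.9% and 31.9% of all features, with log2 fold changes between -0.69 and 1.76 and a median of 0.18. Under total-count scaling 9 were called higher and 0 lower, where 67.1% and 9.81% of all features were. Only 2 neighbours of the AT4G23 cluster were tested. They were GSH1, the first enzyme of glutathione synthesis, at 0.18 ± 0.11 (edgeR adjusted p = 0.163), and AT4G23330, directly beyond CRK24, at -0.25 ± 0.16 (adjusted p = 0.187), and neither was called. AT4G11521, which lies between CRK33 and CRK34, fell by 0.69 ± 0.21 (adjusted p = 0.0166). EIF3A, a translation initiation subunit near the AT4G11 cluster, rose by 1.76 ± 0.13, and APR1, a sulfate assimilation enzyme beyond CRK40, by 0.95 ± 0.22 (adjusted p = 0.00404).

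The family as a whole took a larger part of the library in prp4k3. Its members held 0.218%, 0.184% and 0.194% of the counts of nuclear genes in prp4k3, against 0.0452%, 0.0422% and 0.0512% in Col-0, with no overlap between genotypes. In counts these were 22291, 18024 and 19028 in prp4k3, against 3985, 4173 and 4762 in Col-0. The make-up of those counts also differed, and this does not depend on scaling, although a gene's share also depends on its transcript length. CRK6 held 17.8%, 12.5% and 13.8% of the family's counts in prp4k3, against 0.427%, 0.743% and 0.861% in Col-0. CRK4 held 9.76% ± 0.607 in prp4k3 and 3.27% ± 0.242 in Col-0, and CRK7 6.39% ± 0.326 in prp4k3 and 0.354% ± 0.0992 in Col-0 (SD, n = 3 each). These 3 genes had a larger share in every prp4k3 library than in any Col-0 library.

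Other members gave way in relative terms. CRK10 held 7.07% ± 0.351 of the family's counts in prp4k3 and 18.1% ± 2.97 in Col-0. CRK21 held 0.756% ± 0.101 in prp4k3 and 8.87% ± 1.37 in Col-0, and CRK42 1.39% ± 0.217 in prp4k3 and 9.34% ± 1.27 in Col-0 (SD, n = 3 each). CRK40 held 10.9% ± 0.699 in prp4k3 and 15.5% ± 0.568 in Col-0, although its own level rose. Added up by layout, the 3 chromosome 4 clusters held 81.3%, 80.3% and 81.1% in prp4k3, against 74.7%, 74.1% and 78.0% in Col-0, a difference of 5.31 percentage points. Single copies held 13.8% ± 0.7503 in prp4k3 and 19.9% ± 1.61 in Col-0. Neither layout share overlapped between genotypes. However, CRK6 alone, a cluster member, held 14.7% ± 2.77 in prp4k3 and 0.677% ± 0.225 in Col-0, a wider difference than that of the clusters together. CRK10 and CRK21, also cluster members, lost share, and among the single copies CRK4 gained and CRK42 lost share. The layout shares were not computed without any of these genes and are not read as a trait of the tandem layout.

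**Figure D4:**
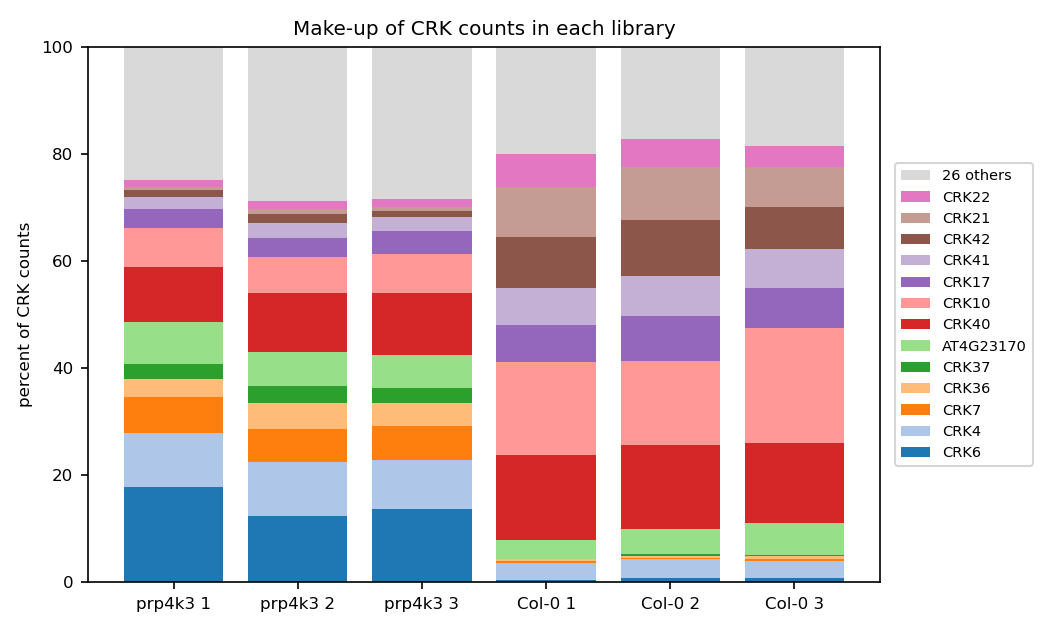
Percent of the counts of all CRK genes that fell on each of 13 named genes and on the 26 others with a count, in the 3 prp4k3 and the 3 Col-0 libraries. CRK6, CRK4 and CRK7 take the lower part of the prp4k3 bars and little of the Col-0 bars, where CRK10, CRK42 and CRK21 are wide.

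The spread of CRK levels between libraries was read apart for well and thinly counted members. Over the 20 members that reached the filter level in both genotypes the median coefficient of variation was 9.44% in prp4k3 and 18.1% in Col-0, and it was larger in prp4k3 for 6 members and in Col-0 for 14. CRK42 had 10.8% in prp4k3 and 2.89% in Col-0, and CRK21 8.01% in prp4k3 and 4.50% in Col-0. Over the 15 other tested members it was 13.1% in prp4k3 and 36.4% in Col-0, where a few counts set the value, as for CRK20 with 2 and CRK32 with 3. Col-0 replicate 3 was the highest Col-0 library in 23 of the 35 members and in all 5 of the AT4G04 cluster, and Col-0 replicate 2 the lowest in 15. Some of these ranks rest on equal counts. CRK38 had 2 counts in each Col-0 library, and CRK37 had 10 in both replicate 2 and replicate 3, so only library size set their order. CRK20, with 0 counts in Col-0 replicates 2 and 3, was ranked lowest in replicate 2. Salicylic acid markers summed to 3345, 2463 and 3325 CPM in prp4k3, against 141, 123 and 190.5 CPM in Col-0. Among the Col-0 libraries that sum was highest in replicate 3 and lowest in replicate 2. Single markers varied. ICS1 and SAG101 were highest in Col-0 replicate 2, and ICS1, EDS1, SAG101, PR2 and PR5 were lowest in Col-0 replicate 1. In prp4k3 no library was the highest in more than 13 of the 35 members. The part of these markers in the spread of CRK levels was not tested. Without Col-0 replicate 3, 31 members were called higher and 3 lower, where 36 were tested. In that fit 6056 of all 18938 tested features were called higher and 5692 lower.

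The authors' deposited table gives a value for 39 members, and 30 of them stand higher and 3 lower in prp4k3 by that table's own adjusted p, where 24.8% and 21.1% of its 28246 features with a value do. Its median log2 fold change is 2.49 over the members and 0.08 over all features. The lower members in the authors' deposited table are CRK21, CRK42 and CRK30 (-1.85, adjusted p = 0.00377), which was not tested here, while CRK22 (-0.33, adjusted p = 0.0816) is not called there. In the authors' deposited table CRK6 stands at 5.99 and CRK5 at 3.14. CRK26, which did not pass the main filter here, is among the higher members there (3.54, that table's adjusted p = 1.24e-05).

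Other genes around the CRKs were read from lists of known relatives and partners. The first list held the plasmodesmata-located proteins PDLP1 to PDLP8, which share the DUF26 region but have no kinase, and the locus AT3G22060. Of its 9 members 8 were tested, and 2 rose and 6 fell in prp4k3, where 33.9% and 31.9% of all features were called, with a median log2 fold change of -0.62 against 0.02 over all features. With total-count scaling the list's calls became 3 higher and 2 lower, where 67.1% and 9.81% of all features were called. Its median was then 0.22, against 0.86 over all features. PDLP5, which closes plasmodesmata in salicylic acid responses, rose by 3.02 ± 0.18 (17.5 ± 2.67 CPM in prp4k3, 2.16 ± 0.314 CPM in Col-0, edgeR adjusted p = 1.16e-06). PDLP1 rose by 0.72 ± 0.22, and PDLP3 and PDLP6 fell by 1.48 ± 0.15 and 1.37 ± 0.20 and stayed lower under total-count scaling (-0.64 and -0.53).

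The second list held 11 genes of receptor complexes and the oxidative burst. In prp4k3 8 rose, where 33.9% of all features were called higher, and 0 fell, where 31.9% were called lower, with a median of 0.69. Under total-count scaling all 11 were higher, where 67.1% of all features were. EFR, the receptor for the bacterial elongation factor EF-Tu, rose by 2.94 ± 0.29, and the oxidase gene RBOHF by 1.27 ± 0.16. RBOHD, the oxidase that CRK2 acts on, had 119 ± 15.1 CPM in prp4k3 and 122 ± 29.0 CPM in Col-0, and its log2 fold change of -0.03 ± 0.17 was not called (edgeR adjusted p = 0.887), while it lay at 0.82 under total-count scaling. BSK1, a kinase that works with the flagellin receptor, lay at 0.29 ± 0.12 (adjusted p = 0.0553).

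All 11 salicylic acid markers rose, against 33.9% of all features, with a median of 3.21. All 11 were also higher under total-count scaling, where 67.1% of all features were. PR2, a glucanase of the defence response, and PR1 rose by 6.82 ± 0.31 and 5.78 ± 0.23. The smallest rises were those of CBP60g, an activator of salicylic acid synthesis, at 2.32 ± 0.18, and NPR1, a salicylic acid receptor, at 1.15 ± 0.11. Of 6 senescence markers 5 rose and 1 fell, where 33.9% of all features were called higher and 31.9% lower. Under total-count scaling 0 of them were lower, where 9.81% of all features were. Their median was 2.92, with summed levels of 133 to 183 CPM in prp4k3 and 51.7 to 68.1 CPM in Col-0. The part of these programmes in the CRK levels was not tested.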

How the data were processed

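RNA-seq of leaves was analysed in 6 libraries, 3 of prp4k3 and 3 of Col-0; small RNA libraries were not used here. Total RNA was used with a stranded kit, per the labels' protocols; TopHat2, SAMtools, HTSeq and edgeR are named in the submitters' processing notes, with roles, versions and genome build not given in the sources used here. The values tested were the deposited raw read counts per feature. The authors' deposited table also holds a scaled score per library, which was not used, and, per the file headers, a ratio (linear fold), its log2 and a p-value for each feature. Whether counting used strand, and how reads shared by near-identical tandem copies were treated, is not given, so counts of neighbouring CRKs may be split or lost; no coordinates are printed.

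Counts were fitted over the whole table with edgeR 4.0.16 in R 4.3.3 (filterByExpr with a minimum count of 10, TMM, quasi-likelihood F-test of genotype), and adjusted by Benjamini-Hochberg over 18609 features. An error after a log2 fold change is its standard error (the size of the estimate divided by the square root of F), and after a level the SD. Ratios with 1 to 3 counts in Col-0 have exact 95% counting intervals on TMM-scaled library sizes; intervals and the floor of 3 counts cover counting error only. The fit was tested on simulated data. Every pair of libraries of a genotype differed by more than sampling noise (chi-square per degree of freedom of at least 7.27). Alternatives were RLE factors, total-count scaling, DESeq2 1.42.0, limma-voom (limma 3.58.1), other filters, organelle genes left out, a replicate block, and each library left out.

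Members and lists were chosen with earlier results of these data known. Members given library by library were the 2 highest and 2 lowest log2 fold changes of each cluster, the pairs, the tested single copies and AT4G23170, and list genes were the 2 highest and 2 lowest; CRK10, neighbouring genes, flower genes, count ratios and shares were picked after their values were seen. A choice by level per coding length was not made, since no lengths of the files' build were used.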

Additional observations from a re-analysis of the deposited data

How the results depend on the processing

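The number of members called higher was 29 and lay between 27 and 33 in the other settings, with 29 to 31 when 1 library was left out. The number called lower was 3, and 2 or 3 elsewhere. Under total-count scaling 67.1% of all features were called higher and 9.81% lower. There the cluster median was 3.71 and the single-copy median 0.86. The single-copy median was 1.05 with no filter and 1.09 in DESeq2, where 6 single copies entered, and between 0.013 and 1.64 when 1 library was left out, where 3 or 4 entered. Neighbouring genes called higher and lower numbered 9 and 0 under total-count scaling, against 4 and 3. The cluster share difference was between 4.55 and 6.51 points when 1 library was left out.

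Signs turned in 4 members: CRK22 and CRK29 under total-count scaling (0.48 and 0.69), and CRK10 and CRK41 when 1 library was left out (-0.0053 to 0.40 for CRK10, -0.060 to 0.13 for CRK41). Under total-count scaling the median log2 fold change of all tested features also moved, from 0.02 to 0.86. Why the signs of CRK10 and CRK41 turned when 1 library was left out was not tested. CRK22 also lost its call in DESeq2 (adjusted p = 0.0794), with no filter (0.0677) and with organelle genes left out (0.0526). Same-numbered libraries of the genotypes share only a number: their deviations correlated at -0.05, 0.05 and -0.05. With a replicate block 29 members were called higher and 2 lower, where 6122 and 5753 of all 18609 tested features were. CRK22 lost its call there (-0.36, edgeR adjusted p = 0.0654). The medians with the block were 2.92 in the clusters and 0.03 in the single copies. CRK25, CRK26, CRK27 and CRK30 had too few counts to be tested under the filter used for the main results, and CRK1 and CRK33 had none. With no filter 39 members entered.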
